A study of Mus musculus with 5 samples.

Results

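Transcripts that mark the granule and Purkinje cells of the cerebellum were followed across brain tissue of the mouse. The set holds 9 genes (Cbln1, Cbln3, Zic1, Zic2, Neurod1 and Fat2 for granule cells, Pcp2, Car8 and Ppp1r17 for Purkinje cells) of 47729 genes counted, and all 9 were found by symbol. They were chosen by name as cerebellar genes, with their counts in these same libraries already known. The material was the right hemisphere of the brain of male C57BL/6 mice, an inbred strain, at an age of 5 months, with 5 libraries in 1 group and no treatment, genotype or other condition to compare. The labels give neither the cut used to free the hemisphere nor whether cerebellum was kept, and do not state that each library is a separate mouse. Libraries are numbered 1 to 5 in accession order, which only names them, and any spread between them may be technical. They held 13184234 to 15570064 counts. Levels are in RPKM (counts divided by gene length in kilobases and by library depth), which allows genes of different length to be compared, and values after ± are the SD over the libraries (n = 5).

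Granule cells are the small, very numerous excitatory neurons of the cerebellum. Their axons, the parallel fibres, contact the dendrites of Purkinje cells, the inhibitory neurons that carry the output of the cerebellar cortex. Some of the genes that mark these cells are nearly restricted to them, whereas others are also used elsewhere in the brain. Neurod1, for example, is also active in granule neurons of the dentate gyrus, and Zic1 in the septum, thalamus and meninges. In bulk tissue, fewer cells of a type and less RNA per cell cannot be told apart.

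The stretch upstream of the start site is shown for a Purkinje gene and a granule gene that were low in 4 libraries and high in 1 (Pcp2 and Cbln3), and for a gene of nearly even level (Zic1). Promoter sequence from RefSeq (GRCm38.p6) was at hand for 5 of the 9 genes. Only bases outside annotated exons are printed, 5′ to 3′ on the gene's strand. Capitals mark a match to a motif. The windows are chr8:3625607-3625778 for Pcp2, chr14:55884393-55884506 for Cbln3 and chr9:91365811-91366018 for Zic1, all on the minus strand.
Pcp2: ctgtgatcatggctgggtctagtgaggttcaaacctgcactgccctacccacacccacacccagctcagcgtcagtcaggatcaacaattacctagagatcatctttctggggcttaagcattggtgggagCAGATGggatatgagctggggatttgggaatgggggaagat
Cbln3: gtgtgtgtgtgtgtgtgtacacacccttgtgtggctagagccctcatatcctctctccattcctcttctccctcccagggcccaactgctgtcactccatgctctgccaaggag
Zic1: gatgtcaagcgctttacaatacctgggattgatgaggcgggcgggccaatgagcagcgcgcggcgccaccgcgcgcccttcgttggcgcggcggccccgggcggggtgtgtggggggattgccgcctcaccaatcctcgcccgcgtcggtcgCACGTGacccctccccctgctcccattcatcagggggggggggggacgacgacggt

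Motifs were searched on both strands of the 250 bases upstream of the most upstream start site. CAGATG, an E-box of the kind that NeuroD proteins bind, was found 100 bases upstream of Pcp2 and in 14.5% of 27025 promoters of the same length. AGGTCA, a core sequence of ROR nuclear receptor sites, lay 12 bases upstream of Pcp2, outside the printed stretch, and in 13.8% of all promoters. CACGTG, another E-box, lay 98 bases upstream of Zic1 and in 6.04% of all. No match to these motifs, to TATAAA (13%) or to CAGCAGG (8.33%) was found for Cbln3 or Neurod1. The Fat2 window was left out because its RefSeq start lies 24307 bases inside the gene as annotated by GENCODE. The RefSeq starts of Cbln3 and Neurod1 also lie inside their GENCODE genes, by 136 and 115 bases, but their windows were kept. Part of their 250 bases is therefore within the annotated gene. The Pcp2 start also differs from that of GENCODE, and its window lies within Pet100 on the opposite strand. Positions, missing matches and GC content for these 3 genes thus hold for the RefSeq starts only. The motifs can overlap one another, and a match is a description of the letters only. The GC content of the full 250 upstream bases, printed or not, was 52.8% for Pcp2, 57.6% for Cbln3 and 66% for Zic1, against a median of 52% over all promoters.

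Zic1 had the highest mean at 9.68 ± 0.886 RPKM, followed by Cbln1 at 9.38 ± 2.33 and Zic2 at 6.52 ± 0.823. Neurod1 (3.08 ± 0.411) and Car8 (2.66 ± 0.691) came next. Ppp1r17 (0.635 ± 0.504), Pcp2 (0.279 ± 0.337), Cbln3 (0.277 ± 0.401) and Fat2 (0.155 ± 0.192) lay below 1 RPKM, and for the last 3 the SD exceeded the mean. Without library 4 the means were 0.0983 RPKM for Cbln3, 0.129 for Pcp2, 0.0735 for Fat2 and 0.447 for Ppp1r17. Zic1 stood at the 81.4th percentile of the 28276 genes with at least 1 count and Fat2 at the 33.4th. Neighbours in this order often overlapped: Zic1 and Cbln1, Cbln1 and Zic2, Neurod1 and Car8, and each neighbouring pair from Ppp1r17 downwards had overlapping ranges. The steps from Zic2 to Neurod1 and from Car8 to Ppp1r17 held without overlap in all 5 libraries. These levels are a description and were not tested.

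**Figure D1:**
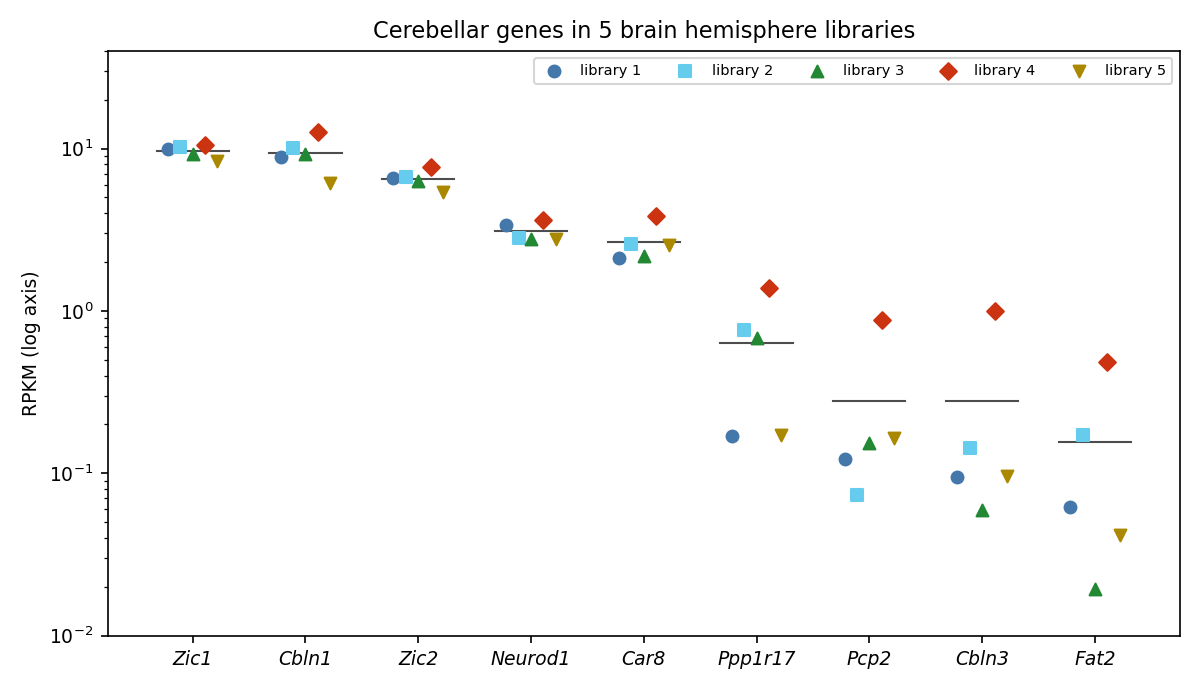
RPKM (log axis) of the 9 cerebellar genes in each of the 5 libraries, ordered by mean, with the mean over the libraries as a bar. Library 4 (diamond) is highest for all 9 genes, from 10.6 RPKM for Zic1 to 0.482 for Fat2.

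Each of the 9 genes had its highest value in library 4. Over the 19857 genes with at least 10 counts in all, 19.9% had their highest value there. Because the genes were picked with these values known, their count is not evidence beyond the description. The excess ranged widely, from 1.10-fold over the median of the other libraries for Zic1 to 10.4-fold for Cbln3.

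Cbln3, a cerebellin found almost only in granule cells, where it forms complexes with Cbln1, is encoded on chromosome 14 (GRCm38, 55878913 to 55884392). It had 6, 10, 4, 73 and 6 counts in libraries 1 to 5, or 0.0949, 0.142, 0.0596, 0.993 and 0.0964 RPKM. Library 4 lay 6.98-fold above the next library, and the exact 95% Poisson interval of its level, 0.778 to 1.25 RPKM, did not reach those of the other 4, the highest of which ended at 0.262. Such intervals cover counting error only, because PCR copies of a molecule cannot be told from separate ones.

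Fat2 (chromosome 11, 55250609 to 55336564), a giant cadherin of parallel fibres, had 12, 37, 4, 109 and 8 counts. Its levels were 0.0617, 0.171, 0.0194, 0.482 and 0.0418 RPKM. Library 4 was again the highest, 2.82-fold above library 2, and library 2 in turn stood apart from the remaining 3, the highest of which had an interval that ended at 0.108 RPKM against a start of 0.120 in library 2.

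Cbln1 (chromosome 8, 87468405 to 87472609) encodes the secreted cerebellin that parallel fibres release and that organises their synapses with Purkinje cells. It is also expressed in forebrain and thalamic neurons. It stood at 8.84, 10.02, 9.20, 12.7 and 6.17 RPKM, highest in library 4 and lowest in library 5. The counts, from 190 to 460, leave a counting error of 5.63% of the mean, while the coefficient of variation between libraries was 24.9%.

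Zic1 and Zic2, zinc finger transcription factors of granule cell precursors and mature granule cells, had the smallest coefficients of variation of the granule genes, although Neurod1 had a smaller range than Zic2 and lay nearer to its counting error. Zic1 (chromosome 9, 91358058 to 91365810) stood at 9.99, 10.3, 9.25, 10.6 and 8.35 RPKM. Zic2 (chromosome 14, 122475435 to 122479852) stood at 6.59, 6.65, 6.28, 7.69 and 5.40 RPKM. Both were highest in library 4 and lowest in library 5, as Cbln1 was, and over all genes with at least 10 counts 22% were lowest in library 5. Neurod1 (chromosome 2, 79452521 to 79456751), a basic helix-loop-helix factor needed for granule neurons to mature, stood at 3.40, 2.83, 2.76, 3.65 and 2.78 RPKM, so that libraries 1 and 4 lay above the other 3. Exons of Neurod1 overlap those of Cerkl on the same strand and of a gene on the opposite strand. Exons of Zic1 overlap Zic4 on the opposite strand by 60 bases. The strand setting of the counting is not given in the sources used here, so reads in the opposite-strand stretches cannot be assigned with certainty. Reads in the stretch shared with Cerkl could not be separated by strand in any case. Cerkl itself had a mean of 0.238 RPKM and stood at 0.219 in library 4.

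Among the Purkinje genes, Pcp2 (chromosome 8, 3623371 to 3625545), a modulator of G protein signalling found in Purkinje cells and retinal bipolar cells, had 3, 2, 4, 25 and 4 counts. That is 0.123, 0.0735, 0.154, 0.878 and 0.166 RPKM. The level in library 4 had an interval of 0.568 to 1.30 RPKM, above those of the other 4 libraries, of which the highest ended at 0.425. Exons of Pcp2 overlap Pet100 on the opposite strand over 941 of 1828 bases. Pet100 itself ran from 10.3 to 12.2 RPKM, was highest in library 2 and stood at 10.4 in library 4.

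Ppp1r17 (chromosome 6, 56017497 to 56032689), the G-substrate of Purkinje cells that inhibits protein phosphatases, had 4, 20, 17, 38 and 4 counts. Its levels of 0.170, 0.765, 0.681, 1.39 and 0.173 RPKM fell into low values in libraries 1 and 5, intermediate ones in 2 and 3 and the highest in 4. The intervals of libraries 2 and 4 overlapped (0.467 to 1.18 and 0.983 to 1.91). Car8 (chromosome 4, 8143362 to 8239041), an inactive carbonic anhydrase relative that binds the inositol trisphosphate receptor Itpr1, stood at 2.11, 2.60, 2.19, 3.83 and 2.56 RPKM. Library 4 lay 1.48-fold above library 2, and the other 4 libraries lay close together.

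**Figure D2:**
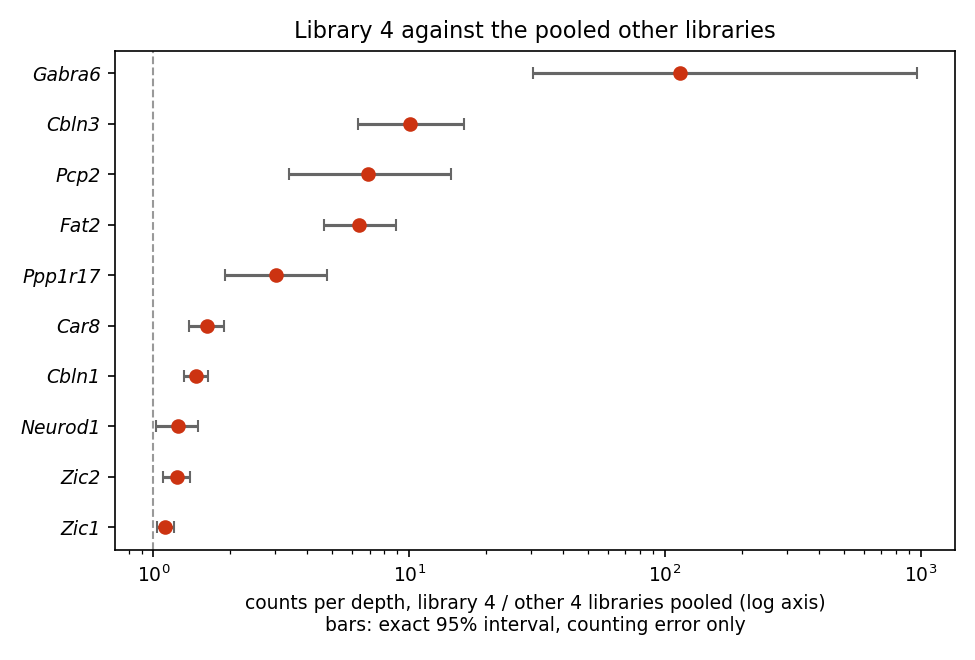
Counts per depth in library 4 relative to the other 4 libraries pooled (log axis) for the 9 genes and Gabra6, with exact 95% intervals that cover counting error only. Cbln3, Pcp2 and Fat2 lie at 10.04, 6.87 and 6.39, and Zic1 lies at 1.11. Library 4 was singled out as the highest after its values were seen, so ratios above 1 were fixed in advance.

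Pooling the other 4 libraries gave the size of the excess with its counting interval. The ratio of counts per depth was 10.04 for Cbln3 (exact 95% interval 6.34 to 16.4), 6.87 for Pcp2 (3.39 to 14.6), 6.39 for Fat2 (4.63 to 8.89) and 3.02 for Ppp1r17 (1.91 to 4.75). For the genes of higher level it was 1.62 for Car8 (1.38 to 1.89), 1.47 for Cbln1 (1.32 to 1.64), 1.24 for Neurod1 (1.03 to 1.49), 1.23 for Zic2 (1.09 to 1.39) and 1.11 for Zic1 (1.03 to 1.20). The genes at the lowest levels in the other libraries thus had the largest ratios. In absolute terms the order was different: library 4 exceeded the median of the others by 3.64 RPKM for Cbln1, 1.46 for Car8, 1.26 for Zic2, 0.962 for Ppp1r17, 0.939 for Zic1, 0.897 for Cbln3, 0.843 for Neurod1, 0.740 for Pcp2 and 0.430 for Fat2.

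The spread between libraries was set against that of all genes of like abundance, with edgeR's quasi-likelihood fit. Only 5 of the 9 genes passed its filter on low counts (Cbln1, Zic1, Zic2, Neurod1 and Car8). Of these, Cbln1 varied more than the abundance trend (edgeR adjusted p = 0.0461, a 2.04-fold range between libraries), against 0.305% of the 14770 genes tested. The call rests on libraries 4 and 5, with an edgeR adjusted p of 0.320 without library 4 and 0.547 without library 5, where 0.298% and 0.121% of all genes tested passed. It was also lost with limma on RPKM (0.535) and with a prior that is not robust (0.132). The other 4 tested genes did not pass, with adjusted p of 0.294 for Car8 (1.79-fold range), 0.931 for Zic1 (1.26-fold), 0.956 for Zic2 (1.42-fold) and 0.995 for Neurod1 (1.31-fold). The median range over all genes tested was 1.19-fold.

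With no filter on low counts, 6 of the 9 genes passed, against 0.881% of 28276 genes: Fat2 (edgeR adjusted p = 2.38e-23), Cbln3 (1.63e-15), Cbln1 (1.03e-06), Ppp1r17 (0.000349), Pcp2 (0.00484) and Car8 (0.00957). Nothing is read from this count, because the genes were chosen with their values known. Without library 4, 2 of the 9 passed, against 0.681% of genes, namely Fat2 (0.00123) and Cbln1 (0.0291). Cbln3, Pcp2, Ppp1r17 and Car8 then had 0.910, 0.972, 0.203 and 0.897. Without library 5, 5 of the 9 passed, against 0.668%, and Cbln1 did not (0.0910).

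**Figure D3:**
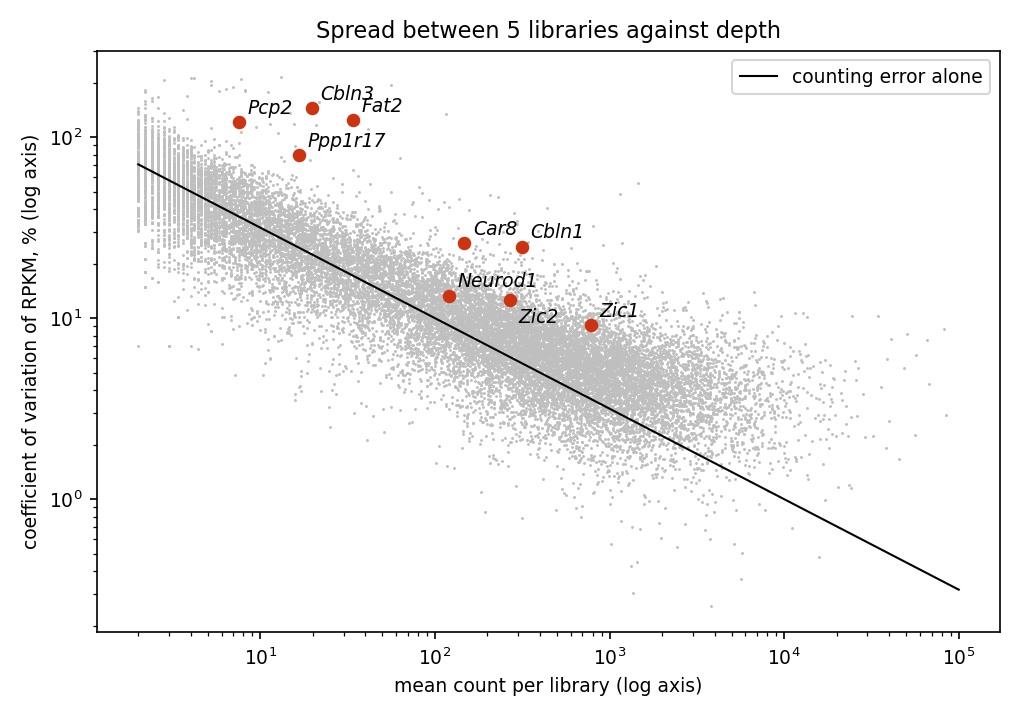
Coefficient of variation of RPKM over the 5 libraries against the mean count per library (both log axes) for 19857 genes with at least 10 counts in all (grey) and the 9 cerebellar genes (red). The line is the spread that counting error alone gives. Cbln3 (145%), Fat2 (124%) and Pcp2 (121%) lie far above it, and Neurod1 (13.3%, with 9.12% from counting alone) lies near it.

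The coefficient of variation was 145% for Cbln3 where counting alone gives 22.5%, 124% for Fat2 (17.1%), 121% for Pcp2 (36.3%), 79.3% for Ppp1r17 (24.5%) and 26.0% for Car8 (8.23%). It was 9.15% for Zic1 (3.56%), 12.6% for Zic2 (6.09%) and 13.3% for Neurod1 (9.12%).

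Relatives of these genes were measured beside them. Among the cerebellins, Cbln2 stood at 13.9 ± 1.39 RPKM and was highest in library 3, and Cbln4 stood at 7.42 ± 0.610, with 7.99 in library 4 and 7.94 in library 3. Of the Zic family, Zic4 and Zic5 stood at 0.905 ± 0.0458 and 0.586 ± 0.130 RPKM. Zic4 lies next to Zic1 and was highest in library 2.

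Fat1 (5.64 ± 0.246 RPKM), Fat3 (8.33 ± 0.316) and Fat4 (1.44 ± 0.0255) had higher means than Fat2, with ranges of 5.22 to 5.85, 7.93 to 8.68 and 1.403 to 1.468 over the libraries. The forebrain relatives of Neurod1, Neurod2 and Neurod6, stood at 17.5 ± 1.74 and 25.7 ± 2.10 RPKM and were highest in library 5. Atoh1, the factor of granule cell precursors, had 3 counts in all, in libraries 3 and 4. The carbonic anhydrase relatives Car10 and Car11 stood at 19.0 ± 0.726 and 74.1 ± 4.11 RPKM, both highest in library 1. Car2 (77.3 ± 6.28) was highest in library 4, at 87.4 against 70.1 to 76.9 in the others. Car4 (16.2 ± 1.52) was highest in library 5.

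Gabra6, the GABA-A receptor subunit that is nearly exclusive to cerebellar granule cells, had 1, 1, 0, 64 and 0 counts. Its level was 1.65 RPKM in library 4 (exact 95% interval 1.27 to 2.11) and 0.0300 and 0.0270 in libraries 1 and 2. The 2 counts of 0 have exact 95% upper limits of 0.104 RPKM in library 3 and 0.112 in library 5. The ratio to the pooled other libraries was 114 (30.4 to 965, counting error only). The 4 libraries with 0 or 1 count and the library with 64 did not overlap.

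Of the other 17 granule cell genes listed, 14 were tested and 1 passed (Calb2, edgeR adjusted p = 0.0444), against 0.305% of all genes tested, and Calb2 was highest in library 2. Calb2 also belongs to the olfactory bulb list. Of the 15 granule genes with at least 10 counts, 6 were highest in library 4, against 19.9% of all genes. The list's level relative to its mean was 1.33 in library 4 and 0.873 to 0.969 in the others. Without Gabra6 it was 1.08 in library 4 and 0.935 to 1.03 in the others. Slc17a7, the most abundant member, stood at 382 ± 22.0 RPKM and is also the main vesicular glutamate transporter of forebrain neurons. Of the other 20 Purkinje genes listed, 19 were tested and 1 passed (Pvalb, edgeR adjusted p = 0.0444), against the same 0.305%, at 57.0, 40.01, 47.6, 62.3 and 44.3 RPKM. The relative level of this list was 1.10 in library 4 and 0.957 to 0.999 in the others, and 11 of the 19 genes with at least 10 counts were highest in library 4. Calb1 (28.5 ± 1.99 RPKM) and Itpr1 (49.1 ± 2.01), both strong Purkinje genes that many other neurons express, ran from 26.4 to 30.7 and from 46.6 to 51.9.

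**Figure D4:**
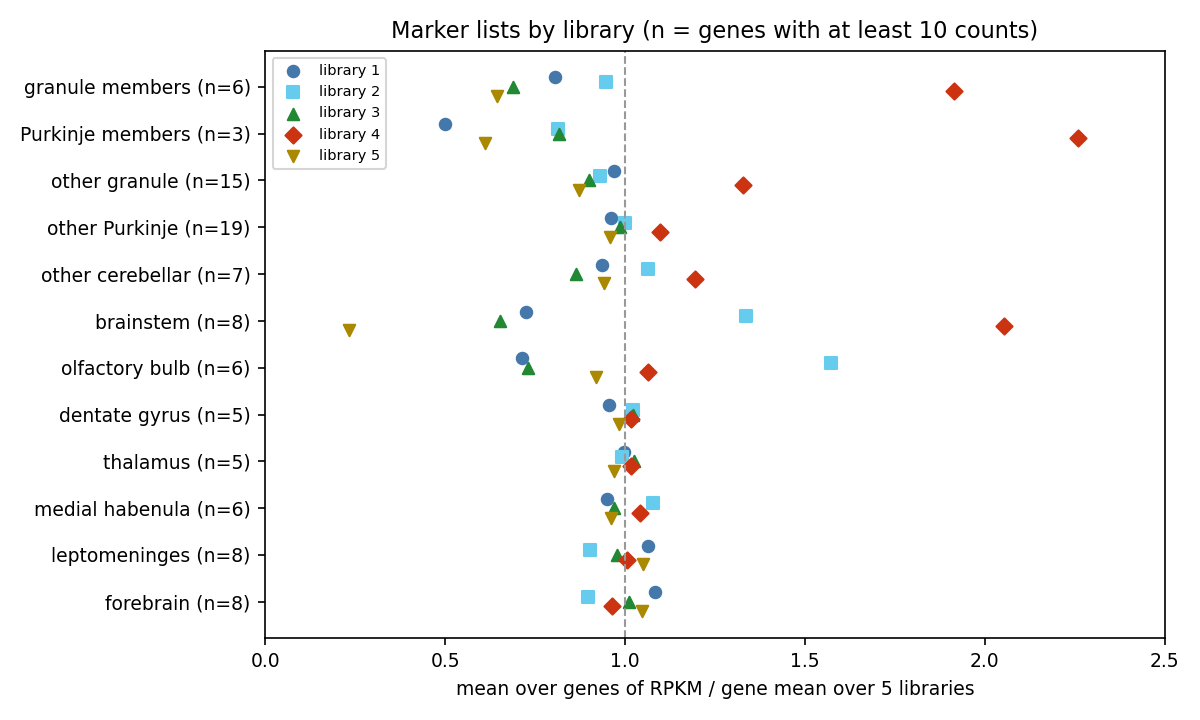
Mean over genes of RPKM relative to each gene's own mean over the 5 libraries, for the granule and Purkinje members and for lists of other markers (n, genes with at least 10 counts). Library 4 stands at 1.92 for the granule members, 2.26 for the Purkinje members and 2.05 for the brainstem list. It stands at 1.33 for the other granule genes, 1.10 for the other Purkinje genes and 1.19 for other cerebellar genes. It lies between 0.964 and 1.06 for the olfactory bulb, dentate gyrus, thalamus, medial habenula, leptomeninges and forebrain lists. Library 2 stands at 1.57 for the olfactory bulb list and 1.34 for the brainstem list. Each gene weighs equally, so genes of low level can carry these means. Relative to the other libraries pooled, library 4 stood at 10.04 for Cbln3 and 6.39 for Fat2. For the granule members Cbln1, Zic1, Zic2 and Neurod1 this ratio was 1.11 to 1.47. Among the Purkinje members it was 6.87 for Pcp2, 3.02 for Ppp1r17 and 1.62 for Car8.

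Some markers of neighbouring hindbrain tissue were also highest in library 4 and others were not. Of the 8 brainstem and spinal genes with at least 10 counts, 5 were highest there, against 19.9% of all genes. Over 9 genes of the brainstem and spinal list, summed levels ran from 15.1 RPKM in library 5 to 31.4 in library 4, with 20.7 to 23.3 in the other 3, and Syt2 alone gave 21.4 of the sum in library 4. Slc6a5, the glycine transporter of hindbrain neurons and of cerebellar Golgi cells, stood at 0.436, 0.737, 0.381, 3.58 and 0.158 RPKM. Of the 9, 4 were tested and 3 passed (Slc6a5, Syt2 and Tph2), against 0.305% of all genes tested. The serotonin neuron genes Tph2 and Slc6a4 were highest in library 2 (3.27 and 1.74 RPKM) and stood at 1.47 and 0.581 in library 4. Hoxb5, with 7 counts in library 2 and 5 in library 4, was also highest in library 2. For tissues where members are also expressed, summed levels in library 4 lay within or close to the range of the others. They were 48.8 RPKM for dentate gyrus genes (43.1 to 48.04 in the others), 53.0 for thalamus (51.3 to 53.2) and 51.1 for leptomeninges (46.5 to 54.1). Abundant genes carry such sums, and Calb1 alone gave 30.7 of the dentate gyrus sum in library 4. Calb1, and Rora with 12.7 of the thalamus sum, also belong to the Purkinje list. Of the dentate gyrus genes with at least 10 counts, 3 of 5 were highest in library 4, against 19.9% of all genes. For thalamus it was 2 of 5 and for leptomeninges 2 of 8. Forebrain markers, which the tissue label leads one to look for, were abundant, with Camk2a at 364 ± 21.6 RPKM and a sum of 1067 RPKM in library 4 against 1026 to 1248 in the others. How far the amount of cerebellum or brainstem in each dissection accounts for these values was not tested.

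Over the whole table, 6 genes reached at least 30 counts in library 4 and at least 3 times the level of every other library (0.0444% of 13526 genes with 30 counts there): Cbln3, Gabra6, Slc6a5, Cnpy1, Dbh and Slc6a2. The threshold was set after the values were seen. Cnpy1 had 0.725 RPKM in library 4 and 0.0519 to 0.149 in the others. Dbh, which makes noradrenaline, had 1.03 and 0.197 to 0.288, and Slc6a2, the noradrenaline transporter, 0.530 and 0 to 0.169. These last 2 are markers of noradrenergic neurons, which lie in the brainstem. By the same threshold, 8 genes stood out in library 1, 1 in library 2 and none in libraries 3 and 5, none of them a cerebellar gene of the set.

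Genes with the most similar course over the 5 libraries were sought among 12389 genes with a mean count of at least 50, by the root mean square distance of log2 deviations. Nearest to Cbln1 were Ubb (0.0733) and Sncg (0.0807), and to Car8 Klk6 (0.0920) and Pik3r5 (0.0937). Nearest to Zic1 were S100a1 (0.0107) and Kcnj12 (0.0174), to Zic2 Rimkla (0.0241) and Trf (0.0261), and to Neurod1 Slc5a7 (0.0349) and Gnb1l (0.0370). With 5 libraries, small distances are common among genes of small range, and the order is a description.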

How the data were processed

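Hemisphere RNA was read in 5 libraries built with an mRNA kit (labels' protocols). The submitters' processing notes name GRCm38, featureCounts 1.4.6-p4, STAR 2.4.1d and CASAVA 1.7. The annotation release, the strandedness and the handling of multiply mapped reads are not given in the sources used. The deposited counts are whole numbers per Ensembl gene. The deposited RPKM values match these counts with the 5 library totals cycled along the rows. The share of 117232 nonzero entries that match rounds to 100.0% (tolerance 0.0011 RPKM plus a relative 0.0002). With each library's own total it was 8.22%. The gene length was solved from the same row, so rows with a single nonzero entry match in either case. By this cycling, 80% of entries were divided by another library's total. RPKM was therefore computed anew, dividing each count by the total of its own library and by the length that both tables together imply.

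Symbols and positions came from GENCODE M21 on GRCm38 for 47224 genes. The fit of spread used edgeR 4.0.16 under R 4.3.3 (robust quasi-likelihood, intercept only, TMM, filterByExpr). Each quasi-dispersion was set against its trend by a one-sided F test on 4 and 15.3 degrees of freedom, with Benjamini-Hochberg adjustment over all genes and a threshold of 0.05. TMM factors lay between 0.9941 and 1.012. Range folds use log2 CPM with a prior count of 2. The alternatives were limma 3.58.1 on log2(RPKM + 0.1), DESeq2 1.42.0, RLE scaling, no filter, other lengths and totals, and each library left out. The test was also run on simulated counts, and the outcome is not reported here. Of 127 listed symbols all were matched. Sequence shared with other genes (words of 50 bases) was at most 5.78% for the 9 genes.

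The members and lists were chosen with earlier results of these data known. Named genes are the 9 members, leading, called and undetected genes of each list, family members and, for each tested member, the 2 genes of nearest course. Cnpy1, Dbh, Slc6a2, Pet100 and Gabra6 beside them were singled out after their values were seen. Protein sequences and some listed genes are not reported here.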

Additional observations from a re-analysis of the deposited data

Results flagged for a closer look

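In 7 of 28 genes examined, 1 library lay far from the other 4 (the gap to the nearest library exceeded 0.71 of the whole range), and in all 7 it was library 4. Chance gives such a gap in about 1 in 20 groups of 5, but the genes were picked with their values known, so the number is not set against that rate. They were Cbln3 (0.993 RPKM there, 0.0596 to 0.142 in the others), Pcp2 (0.878 and 0.0735 to 0.166), Car8 (3.83 and 2.11 to 2.60), Gabra6 (1.65 and 0 to 0.0300), Slc6a5 (3.58 and 0.158 to 0.737), Cnpy1 (0.725 and 0.0519 to 0.149) and Dbh (1.03 and 0.197 to 0.288). Cnpy1, Dbh and Gabra6, and Slc6a2 among the rest, were singled out after their values were seen. Cbln3, Gabra6, Slc6a5, Cnpy1 and Dbh had also met the threshold of 3 times every other library. That threshold makes a wide gap in library 4 nearly certain, so their flags add little. Slc6a2 met it too and fell just short of a flag (0.681). Fat2 (0.482 and 0.0194 to 0.171) came close. The 7 genes are not independent, since they share the library.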

How the results depend on the processing

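The number of members called more variable than the trend (1, against 0.305% of all genes tested) was 6 with no low-count filter (0.881%). It was 0 with limma on recomputed RPKM, 0 with a non-robust prior, 1 with RLE scaling and 1 with DESeq2. Leaving out each library in turn gave 0 to 1, with 0 without library 4 (0.298%) or library 5 (0.121%). With no filter it was 2 without library 4 (0.681%) and 5 without library 5 (0.668%), both chosen after seeing the data. The share of all genes called under the other settings is not reported here, so their counts cannot be set against it. The low means rest on library 4: without it Cbln3 went from 0.277 to 0.0983 RPKM, Pcp2 from 0.279 to 0.129, Fat2 from 0.155 to 0.0735 and Ppp1r17 from 0.635 to 0.447. With the annotated exon length the mean of Cbln1 went from 9.38 to 7.21. The median over the 9 genes (2.66 RPKM, that of Car8) ran from 2.37 to 2.80. On counts without length, 6 of 36 pairs of genes turned their order, among them Fat2 against Pcp2 and Neurod1 against Car8. Counts of 2 to 4 in the lowest library limit the values of Pcp2, Cbln3, Fat2 and Ppp1r17. No paired analysis was possible because the libraries form 1 group.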
